A study of Mus musculus with 8 samples.

Results

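The genes described here are 10 genes of the transforming growth factor-beta (TGF-β) pathway, chosen by name: the ligands Tgfb1, Tgfb2 and Tgfb3, the receptors Tgfbr1, Tgfbr2 and Tgfbr3, the signal transducers Smad2 and Smad3, the latency protein gene Ltbp1 and the induced matrix gene Tgfbi. Each name matched 1 of the 18770 genes in the deposited table, and all 10 were among the 15964 genes tested. The study asked which transcripts change in mouse skin when alpinetin (AP), a plant flavonoid, is put on the skin during hair regrowth. Both groups were wildtype C57BL/6 mice of 7 to 8 weeks per the labels, C57BL/6J and male per the methods, whose dorsal hair had been plucked. The AP group (4 libraries) received 3 mg/ml AP in 20 µl of 65% ethanol on the plucked skin each day from the day after depilation, and the vehicle control (VC) group (4 libraries) received 20 µl of 65% ethanol alone. Skin was taken at D4 after depilation. Per the methods, the epidermis between follicles was removed and poly(A) RNA of the remaining dermis and follicles was sequenced.

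TGF-β ligands are secreted in a latent complex with their own propeptide, which is tethered to the matrix by latent TGF-β binding proteins and must be opened before the ligand can act. The active ligand binds the type II receptor, which recruits and phosphorylates the type I receptor, and this in turn phosphorylates Smad2 and Smad3, which enter the nucleus with Smad4. In skin the pathway restrains keratinocyte proliferation and drives matrix production by fibroblasts, and in the hair follicle it takes part in the start of a new growth phase and in regression.

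The VC libraries held 6454563 to 7264151 gene reads each and the AP libraries 8507783 to 11190113. Mitochondrially encoded genes took 48.4% ± 5.81 of the VC reads but 8.66% ± 2.63 of the AP reads (SD, n = 4 each), a difference that cannot be told apart from the treatment here. Values below are normalized counts, that is reads divided by 1 size factor per library, and 1 read was worth between 1.37 and 1.88 normalized counts in VC libraries and between 0.498 and 0.725 in AP libraries. The members had between 41 and 4670 reads in a library. The study's number of mice per group for this experiment equals that of the libraries. Each library was therefore taken as a separate mouse, though the library columns name no animal.

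The receptors Tgfbr2 and Tgfbr3 were higher in the AP group, each by about a doubling, while the ligands, Tgfbr1, Smad2, Smad3, Ltbp1 and Tgfbi did not pass the test. With a threshold of 0.05 on limma's p adjusted over all genes tested, 2 of the 10 members were higher and 0 lower, where 6.33% of all genes tested were higher, 4.0% were lower and 10.3% passed in either direction. Without AP.2 1 member, Tgfbr2, was called. The genes called higher and lower numbered 1011 and 639, so 61.3% of called genes were higher. This share was 49.9% with upper-quartile scaling and 47.9% with voom. The counts were 584 and 255 without VC.1, 385 and 155 without AP.2, 211 and 96 without AP.3 and 257 and 147 without AP.4. At an unadjusted p under 0.05 there were 3 such members, the third being Tgfb3 with its lower AP mean, and edgeR and DESeq2 also called 0 members lower. The share of all genes under that unadjusted p is not given here, and the shares above are for the adjusted p. In Tgfbr2 and Tgfbr3 every AP library exceeded every VC library, a separation seen in 10.3% of all genes tested, and in 0 members did every AP library lie below every VC library (8.91% of all genes tested). The median log2 fold change (AP over VC) was 0.15 over the members and 0.06 over all genes tested. With the trend on exon length removed, Smad2 (-0.08) and Ltbp1 (-0.21) turned negative without passing, and the members' median at that setting is not given here. With libraries scaled to their total counts, mitochondrial reads included, 9 members were called higher, as were 8662 of the 15964 genes tested. Under this scaling Tgfb1, Tgfb3, Tgfbr1 and Tgfbi changed sign, and the median of all genes moved up by 0.84. Relative to that shift, Tgfbr2 stood at 0.98, Tgfbr3 at 1.10 and the other members between -0.41 and 0.28.

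**Figure D1:**
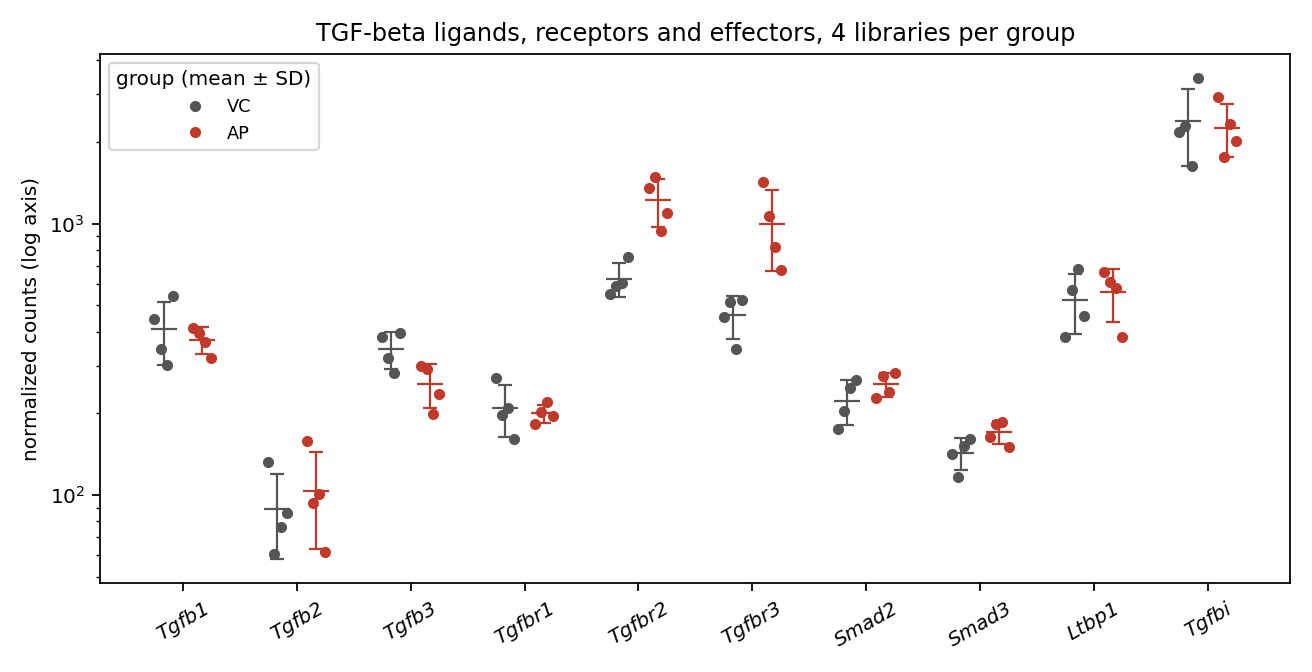
Normalized counts (log axis) of the 10 genes in the 4 VC and 4 AP libraries, with points for libraries and bars for the mean ± SD. The AP libraries of Tgfbr2 (940.2 to 1485) and Tgfbr3 (674 to 1425) lie above the VC libraries, and the groups overlap in the other 8 genes. With total-count scaling 9 of the 10 genes were called higher, as were 8662 of the 15964 genes tested.

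Tgfb1 encodes the most widely expressed ligand, made by many cell types as well as by leukocytes and platelets. Its normalized counts were 446, 346, 300.4 and 542 in VC.1 to VC.4, compared with 414, 394, 366 and 319 in AP.1 to AP.4. The AP libraries lay inside the VC range, so the groups overlapped. The log2 fold change was -0.10, with a 95% interval from -0.53 to 0.34 (limma adjusted p = 0.768).

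Tgfb2 encodes the ligand linked to the dermal papilla and follicle regeneration. It had 133, 60.6, 76.5 and 86.3 normalized counts in VC.1 to VC.4, compared with 158, 93.3, 100.7 and 61.5 in AP.1 to AP.4. Each group had 1 high library, VC.1 and AP.1, and the groups overlapped almost throughout. Its log2 fold change of 0.19 had the widest interval of the 10 members, from -0.53 to 0.92 (limma adjusted p = 0.726). Leaving out 1 library in turn gave values from -0.04 to 0.41.

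Tgfb3, the third ligand, had 382, 321, 283 and 396 normalized counts in VC.1 to VC.4, compared with 299.5, 291, 199 and 235 in AP.1 to AP.4. AP.3 and AP.4 were below every VC library, whereas AP.1 and AP.2 lay above VC.3. The group means were 345 ± 53.0 (VC) and 256 ± 47.5 (AP; SD, n = 4 each). The log2 fold change was -0.43 (SE 0.19, 95% interval -0.85 to -0.02), which did not pass the test over all genes (limma adjusted p = 0.148). An exact permutation test of Tgfb3 alone gave p = 0.0857.

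Levels of different genes were compared per kilobase of exon length. In the VC group Tgfb3 (102 ± 15.7 normalized counts per kilobase) and Tgfb1 (81.0 ± 21.4) overlapped between libraries, but within each of the 4 libraries Tgfb3 was the higher, and Tgfb2 had 15.4 ± 5.36 (SD, n = 4). In the AP group Tgfb3 (75.8 ± 14.1) and Tgfb1 (74.0 ± 8.18) did not differ beyond their spread, with Tgfb3 the lower in AP.3 (58.9 and 72.5), and Tgfb2 had 17.9 ± 6.95. As a share of the 3 ligands per length, Tgfb3 made up 50.4%, 54.5%, 53.4% and 48.9% in VC.1 to VC.4, compared with 44.7%, 47.7%, 39.6% and 48.5% in AP.1 to AP.4. This share was lower in each AP library than in each VC library, by a narrow margin between AP.4 and VC.4, and was computed after the values were seen and not tested.

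Tgfbr2 encodes the type II receptor, the kinase that binds the ligand first. It had 549, 591, 602 and 754 normalized counts in VC.1 to VC.4, compared with 1356, 1485, 940.2 and 1093 in AP.1 to AP.4. The lowest AP library, AP.3, was above the highest VC library, VC.4, and AP.2 was the highest of all. The mean rose from 624 ± 89.4 to 1219 ± 247 (SD, n = 4 each). Its log2 fold change was 0.95 (1.93-fold, SE 0.18, 95% interval 0.56 to 1.34, limma adjusted p = 0.0132), and the exact permutation test over 70 assignments gave p = 0.0286, the smallest it allows. Under all 21 alternatives with an adjusted p it was below 0.05, with the highest at 0.0483.

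Tgfbr3 encodes betaglycan, a coreceptor without a kinase that presents ligand, TGF-β2 above all, to the type II receptor and also binds inhibins. It had 453, 516, 345 and 525 normalized counts in VC.1 to VC.4, compared with 1425, 1068, 819 and 674 in AP.1 to AP.4. Here AP.1 was the highest library and AP.4 the lowest of the AP group, still above VC.4. The mean rose from 459.8 ± 82.7 to 996 ± 329 (SD, n = 4 each), with a log2 fold change of 1.08 (SE 0.23, 95% interval 0.57 to 1.59, limma adjusted p = 0.0207) and p = 0.0286 in the exact permutation test. Without AP.2 the log2 fold change was 1.02 and the adjusted p 0.0588, the highest of its 21 alternatives.

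Tgfbr1 encodes the type I receptor, the kinase that the type II receptor activates. Its normalized counts were 269, 197, 209 and 161 in VC.1 to VC.4, compared with 183, 202, 219.7 and 195 in AP.1 to AP.4. All AP libraries lay inside the VC range. The log2 fold change was -0.04, with a 95% interval from -0.46 to 0.38 (limma adjusted p = 0.900).

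Ratios within a library do not depend on how libraries are scaled. Tgfbr2 over Tgfbr1 gave 2.04, 3.01, 2.88 and 4.67 in VC.1 to VC.4, compared with 7.42, 7.37, 4.28 and 5.60 in AP.1 to AP.4. The means were 3.15 ± 1.10 and 6.17 ± 1.52 (SD, n = 4 each), but VC.4 lay above AP.3, so the groups overlapped. Tgfbr3 over Tgfbr1 gave 1.68, 2.62, 1.65 and 3.26 in VC.1 to VC.4, compared with 7.80, 5.29, 3.73 and 3.45 in AP.1 to AP.4, without overlap. For Tgfbr2 over Tgfbr3 the means were 1.39 ± 0.269 and 1.28 ± 0.291, with overlapping libraries. These ratios were described and not tested. Per kilobase, Tgfbr2 and Tgfbr3 had 76.2 ± 10.9 and 70.3 ± 12.6 normalized counts under VC, compared with 149 ± 30.2 and 152 ± 50.3 under AP, so that the pair did not differ beyond its spread in either group. Tgfbr1 was at 32.0 ± 6.88 and 30.6 ± 2.36 per kilobase.

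**Figure D2:**
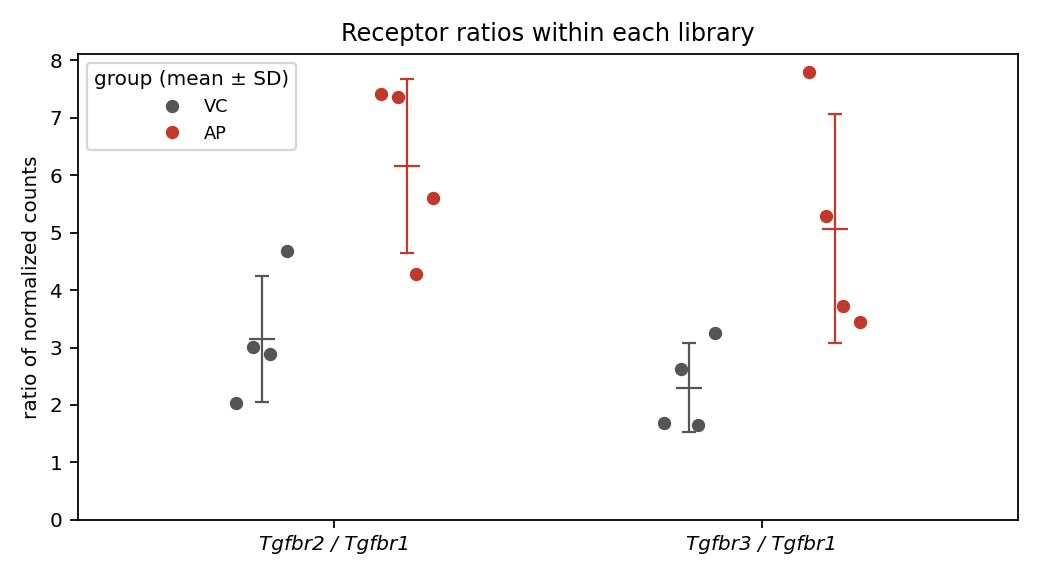
Ratio of normalized counts of Tgfbr2 to Tgfbr1 and of Tgfbr3 to Tgfbr1 within each of the 4 VC and 4 AP libraries, with points for libraries and bars for the mean ± SD. For Tgfbr2 the VC.4 ratio of 4.67 exceeds the AP.3 ratio of 4.28, and for Tgfbr3 the highest VC ratio, 3.26, is below the lowest AP ratio, 3.45.

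Smad2 and Smad3 encode the receptor-activated Smads that carry the TGF-β and activin signal. Smad2 had 175, 204, 247 and 266 normalized counts in VC.1 to VC.4, compared with 227, 274, 240.2 and 281 in AP.1 to AP.4. Smad3 had 142, 117, 152 and 161 in VC.1 to VC.4, compared with 164, 183, 185 and 150.2 in AP.1 to AP.4. For Smad2 and Smad3 alike the higher VC libraries reached into the AP range. The log2 fold changes were 0.21 (95% interval -0.19 to 0.61, limma adjusted p = 0.472) and 0.26 (95% interval -0.15 to 0.67, limma adjusted p = 0.379). Per kilobase Smad2 (25.4 ± 4.72) and Smad3 (25.8 ± 3.45) did not differ beyond their spread in the VC group, nor in the AP group (29.1 ± 2.97 and 30.8 ± 3.0; SD, n = 4). Phosphorylation of the proteins was not measured.

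Ltbp1 encodes a latent TGF-β binding protein that stores the ligand in the matrix. Its normalized counts were 382, 570.4, 681 and 456 in VC.1 to VC.4, compared with 663, 610.4, 577 and 383 in AP.1 to AP.4, so that each group had its own low library. The log2 fold change was 0.10 (95% interval -0.39 to 0.59, limma adjusted p = 0.791). Tgfbi encodes a secreted matrix protein named for its induction by TGF-β. It had 2179, 2297, 1626 and 3441 normalized counts in VC.1 to VC.4, compared with 2928, 1767, 2327 and 2013 in AP.1 to AP.4. The VC libraries spanned the whole AP range, and the log2 fold change was -0.05 (95% interval -0.57 to 0.46, limma adjusted p = 0.902). Per kilobase Tgfbi was the most abundant of the 10 transcripts in both groups, with 633 ± 202 and 599 ± 133 normalized counts (SD, n = 4). In the VC group Tgfb3, Tgfb1, Tgfbr2, Tgfbr3, Ltbp1 (48.9 ± 12.3), Tgfbr1, Smad3, Smad2 and Tgfb2 followed in the order of their means, and of these neighbours only Tgfb3 and Tgfb1 kept their order in all 4 libraries. In the AP group Tgfbr3 and Tgfbr2 came directly after Tgfbi, ahead of Tgfb3 and Tgfb1.

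In mm10, Tgfbr2 (ENSMUSG00000032440) is a protein-coding gene on the minus strand at chr9:116084293-116175360, with exons that cover 8187 bases, and Tgfbr3 (ENSMUSG00000029287) lies on the minus strand at chr5:107106570-107289629, with 6545 exon bases. Tgfb1 is at chr7:25687002-25705077, Tgfb2 at chr1:186622792-186705989, Tgfb3 at chr12:86056745-86079041, Tgfbr1 at chr4:47353222-47414931, Smad3 at chr9:63646767-63757994, Ltbp1 at chr17:75005568-75392512 and Tgfbi at chr13:56609523-56639562; the position of Smad2 is not given here. Gm43422 shares 297 exon bases (4.54%) with Tgfbr3 on the same strand. Antisense genes share 2.14% of the exon bases of Tgfb2 (Gm29491) and 4.82% and 7.60% of those of Tgfb3 (Gm37804 and Gm48008). Whether reads were counted by strand is not given in the sources used here, so these small parts are uncertain.

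RefSeq promoter sequences (GRCm38.p6) were used for 7 of the 10 members, and those of Tgfb3, Tgfbr3 and Smad2 were not analysed here. Those of Tgfbr2, which rose, and of Tgfbr1, its partner kinase, which did not pass the test, are shown for the 250 bases before the gene start, 5′ to 3′ on the gene's strand. The window is chr9:116175364-116175613 on the minus strand for Tgfbr2 and chr4:47352972-47353221 on the plus strand for Tgfbr1, the first of 2 starts listed for that gene. Capitals mark the CCAAT box (CCAAT) and the GC box (GGGCGG) on either strand.
Tgfbr2: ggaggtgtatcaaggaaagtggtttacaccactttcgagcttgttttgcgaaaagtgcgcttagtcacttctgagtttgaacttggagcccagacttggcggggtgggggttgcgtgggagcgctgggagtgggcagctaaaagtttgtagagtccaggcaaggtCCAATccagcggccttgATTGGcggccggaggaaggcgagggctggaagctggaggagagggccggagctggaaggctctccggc
Tgfbr1: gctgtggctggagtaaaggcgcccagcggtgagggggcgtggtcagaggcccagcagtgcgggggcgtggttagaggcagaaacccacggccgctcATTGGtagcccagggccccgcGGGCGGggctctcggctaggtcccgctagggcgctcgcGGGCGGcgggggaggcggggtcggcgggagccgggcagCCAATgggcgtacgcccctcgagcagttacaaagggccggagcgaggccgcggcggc
CCAAT was found in 2 places in each of these windows, and it occurs in 33.8% of the 32851 promoters of this length. GGGCGG was found in 2 places before Tgfbr1 and in 0 before Tgfbr2, and 32.7% of all promoters hold it. An AP-1 site (TGANTCA, 6.75% of promoters) and a palindromic Smad box (GTCTAGAC, 0.167%) were searched on both strands too and had 0 matches in the pair; no match overlapped another. G and C made up 58.4% of the bases before Tgfbr2 and 74.8% before Tgfbr1, against a median of 52.4% over all promoters. A match describes these letters and is no evidence of binding.

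Beyond the 10 members, 68 other genes of the pathway, in 5 lists, were tested, and by the same threshold 11 were higher and 1 was lower (6.33% and 4.0% of all genes, limma). Of the 70 genes listed, Tgfbr3l did not reach the filter on low values and Tdgf1 was not analysed here. The calls were spread over all 5 lists, whose median log2 fold changes were 0.37 for latency, storage and activation, 0.40 for other receptors, 0.23 for other Smads and regulators, 0.63 for the activin branch and 0.41 for target genes, beside 0.06 for all genes tested. These medians were not tested, and those with the trend on exon length removed are not given here. At that setting Itgav moved from 1.26 to 0.94 and Ski from 0.58 to 0.45, while Tagln moved from 0.76 to 0.92. Without AP.2 5 were higher and 1 was lower, without AP.3 6 and 0, and without AP.4 4 and 0. The counts were 7 and 0 without VC.1, 7 and 1 without VC.2, and 8 and 0 without VC.4. By unadjusted p, edgeR and DESeq2 the higher genes numbered 20, 11 and 15 and the lower genes 4, 1 and 3. Over all genes edgeR called 1003 higher and 712 lower, and DESeq2 1667 and 1394. No share of all genes is given for the unadjusted p. With total-count scaling 45 of the pathway genes were higher and 0 lower. That scaling called 8662 of the 15964 genes tested higher and 70 lower.

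Among 16 genes of latency, storage and activation, 5 were higher and 11 did not pass. Lrrc32 encodes GARP, which holds latent TGF-β on the cell surface. It had 76.4, 36.9, 88.8 and 71.3 normalized counts in VC.1 to VC.4, compared with 217, 305, 204 and 259.6 in AP.1 to AP.4, with a log2 fold change of 1.89 (SE 0.28, limma adjusted p = 0.00728). Every AP library was more than double any VC library. Ltbp4, a relative of Ltbp1 that also organises elastic fibres, had 724, 715, 1139 and 566 in VC.1 to VC.4, compared with 2039, 3448, 1815 and 1824 in AP.1 to AP.4 (log2 fold change 1.53, SE 0.25, limma adjusted p = 0.00896). Furin, the protease that cleaves the TGF-β propeptide, rose from 369 ± 68.1 to 719 ± 84.5 (SD, n = 4 each; log2 fold change 0.97, limma adjusted p = 0.0113). Thbs1 and Itgav encode the activators thrombospondin-1 and integrin αv. In all 5 genes every AP library lay above every VC library, as in 10.3% of all genes tested. The 5 were picked by their adjusted p on the same values, so this separation is no further support. The log2 fold changes of Thbs1 and Itgav were 1.07 (SE 0.27, limma adjusted p = 0.0339) and 1.26 (SE 0.33, limma adjusted p = 0.0352). Of the 8 fits that left out 1 library, 2 kept the Thbs1 call and 4 the Itgav call. Thbs1 had an adjusted p of 0.0770 without VC.1, 0.0523 without VC.2, 0.0666 without VC.4, 0.0713 without AP.2, 0.0922 without AP.3 and 0.0517 without AP.4, and Itgav had 0.0613 without VC.4, 0.0820 without AP.2, 0.104 without AP.3 and 0.0812 without AP.4. With the trend on exon length removed Thbs1 had 0.0540 and Itgav 0.0726, and Thbs1 had 0.0560 with voom. The 5 calls became 3 without VC.4, AP.2, AP.3 or AP.4. Dcn, which encodes the TGF-β-binding proteoglycan decorin and was the most abundant of the list per length, had 8347 ± 3228 and 9100.0 ± 3205 normalized counts (log2 fold change 0.15, limma adjusted p = 0.784).

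Of 5 other receptors, coreceptors and decoys tested, 1 was higher. Cd109, which encodes a coreceptor that dampens TGF-β signalling in keratinocytes, had 269, 408, 314 and 249 normalized counts in VC.1 to VC.4, compared with 572, 501, 995 and 989 in AP.1 to AP.4. Its groups did not overlap, with AP.3 and AP.4 highest, and its log2 fold change was 1.26 (SE 0.25, limma adjusted p = 0.0167). The adjusted p was 0.0583 without AP.3 and 0.0528 without AP.4. Eng, the endothelial coreceptor endoglin and the most abundant of the list per length, had 377, 343, 576 and 570.0 in VC.1 to VC.4, compared with 846, 1715, 709 and 626 in AP.1 to AP.4. It did not overlap either, but with a log2 fold change of 0.98 it did not pass (SE 0.30, limma adjusted p = 0.0584).

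Of 18 other Smads and regulators, 1 was higher and 17 did not pass. Ski, which encodes a corepressor that binds the Smads and was the most abundant of the list per length, had 740.1 ± 90.4 and 1105 ± 150 normalized counts (SD, n = 4 each; log2 fold change 0.58, SE 0.15, limma adjusted p = 0.0386). Of the fits without 1 library, 1 kept this call; its adjusted p was 0.0777 without VC.1, 0.0733 without VC.2, 0.0632 without VC.4, 0.0567 without AP.1, 0.110 without AP.2, 0.106 without AP.3 and 0.0635 without AP.4, 0.0519 with upper-quartile scaling and 0.0726 with the length trend removed, and its fold was below the 1.5 of the methods' criteria. In the activin branch, which shares Smad2 and Smad3, 1 of 8 genes was higher. Inhbb, the βB subunit of activin and inhibin, had 140.1, 108, 104 and 195 in VC.1 to VC.4, compared with 269.8, 322, 269 and 240.3 in AP.1 to AP.4, without overlap (log2 fold change 1.04, SE 0.23, limma adjusted p = 0.0206). Its adjusted p was 0.0626 without AP.2, 0.0663 without AP.3 and 0.0503 without AP.4. Acvr1b, an activin type I receptor and the most abundant of this list per length over the 8 libraries, had 235 ± 40.1 and 348 ± 70.4 (log2 fold change 0.56, limma adjusted p = 0.0913).

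Of 21 genes known as targets of TGF-β in various cells, 3 were higher, 1 was lower and 17 did not pass. Junb, an AP-1 transcription factor gene that many stimuli induce, had 553, 627, 737 and 375 normalized counts in VC.1 to VC.4, compared with 2057, 1629, 2409 and 1908 in AP.1 to AP.4. The groups lay far apart, and the log2 fold change was 1.83 (SE 0.21, limma adjusted p = 0.00231). Prdx2 shares 7.52% of the exon bases of Junb on the opposite strand, and had 2195 and 1556 normalized counts on average in the VC and AP groups. Antisense genes also share 2.51% of the exon bases of Bhlhe40 (0610040F04Rik, 21.8 and 61.7) and 3.42% of those of Thbs1 (Gm29233, 7.09 and 38.6). For Furin the share was 1.29% (Gm44851, 0 and 5.26), and for Itgav 5.9% (Gm13684, without values here). Acta2, smooth muscle actin, rose from 537 ± 150.0 to 1261 ± 469 (log2 fold change 1.2, limma adjusted p = 0.0258), and the transcription factor gene Bhlhe40 from 285 ± 51.1 to 432 ± 40.8 (log2 fold change 0.61, limma adjusted p = 0.0418). Snai1, an epithelial-mesenchymal transition factor gene, was lower, with 233, 130.0, 186 and 294 in VC.1 to VC.4, compared with 107, 121, 69.8 and 67.2 in AP.1 to AP.4 (log2 fold change -1.18, SE 0.30, limma adjusted p = 0.0321). The collagen gene Col1a1, the most abundant of the list per length, had a log2 fold change of 0.63 with a 95% interval from -0.48 to 1.74 (limma adjusted p = 0.428). Acta2 had an adjusted p of 0.0636 without VC.1, 0.0510 without VC.2, 0.0674 without AP.2 and 0.0657 without AP.4. Snai1 had 0.0695 without VC.1, 0.0649 without VC.4, 0.100 without AP.3 and 0.0892 without AP.4, 0.367 with total-count scaling and 0.0584 with the length trend removed. Of the fits without 1 library, 1 kept the Bhlhe40 call, with adjusted p-values up to 0.114: it was 0.0821 without VC.1, 0.0745 without VC.2, 0.0731 without VC.4, 0.0667 without AP.1, 0.114 without AP.2, 0.106 without AP.3 and 0.0845 without AP.4. Bhlhe40 also had 0.0548 with upper-quartile scaling, 0.0532 with total counts without mitochondrial genes, 0.0535 with voom and 0.0624 with the length trend removed. The 3 higher calls became 1 without VC.1, VC.2, AP.2 or AP.4.

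**Figure D3:**
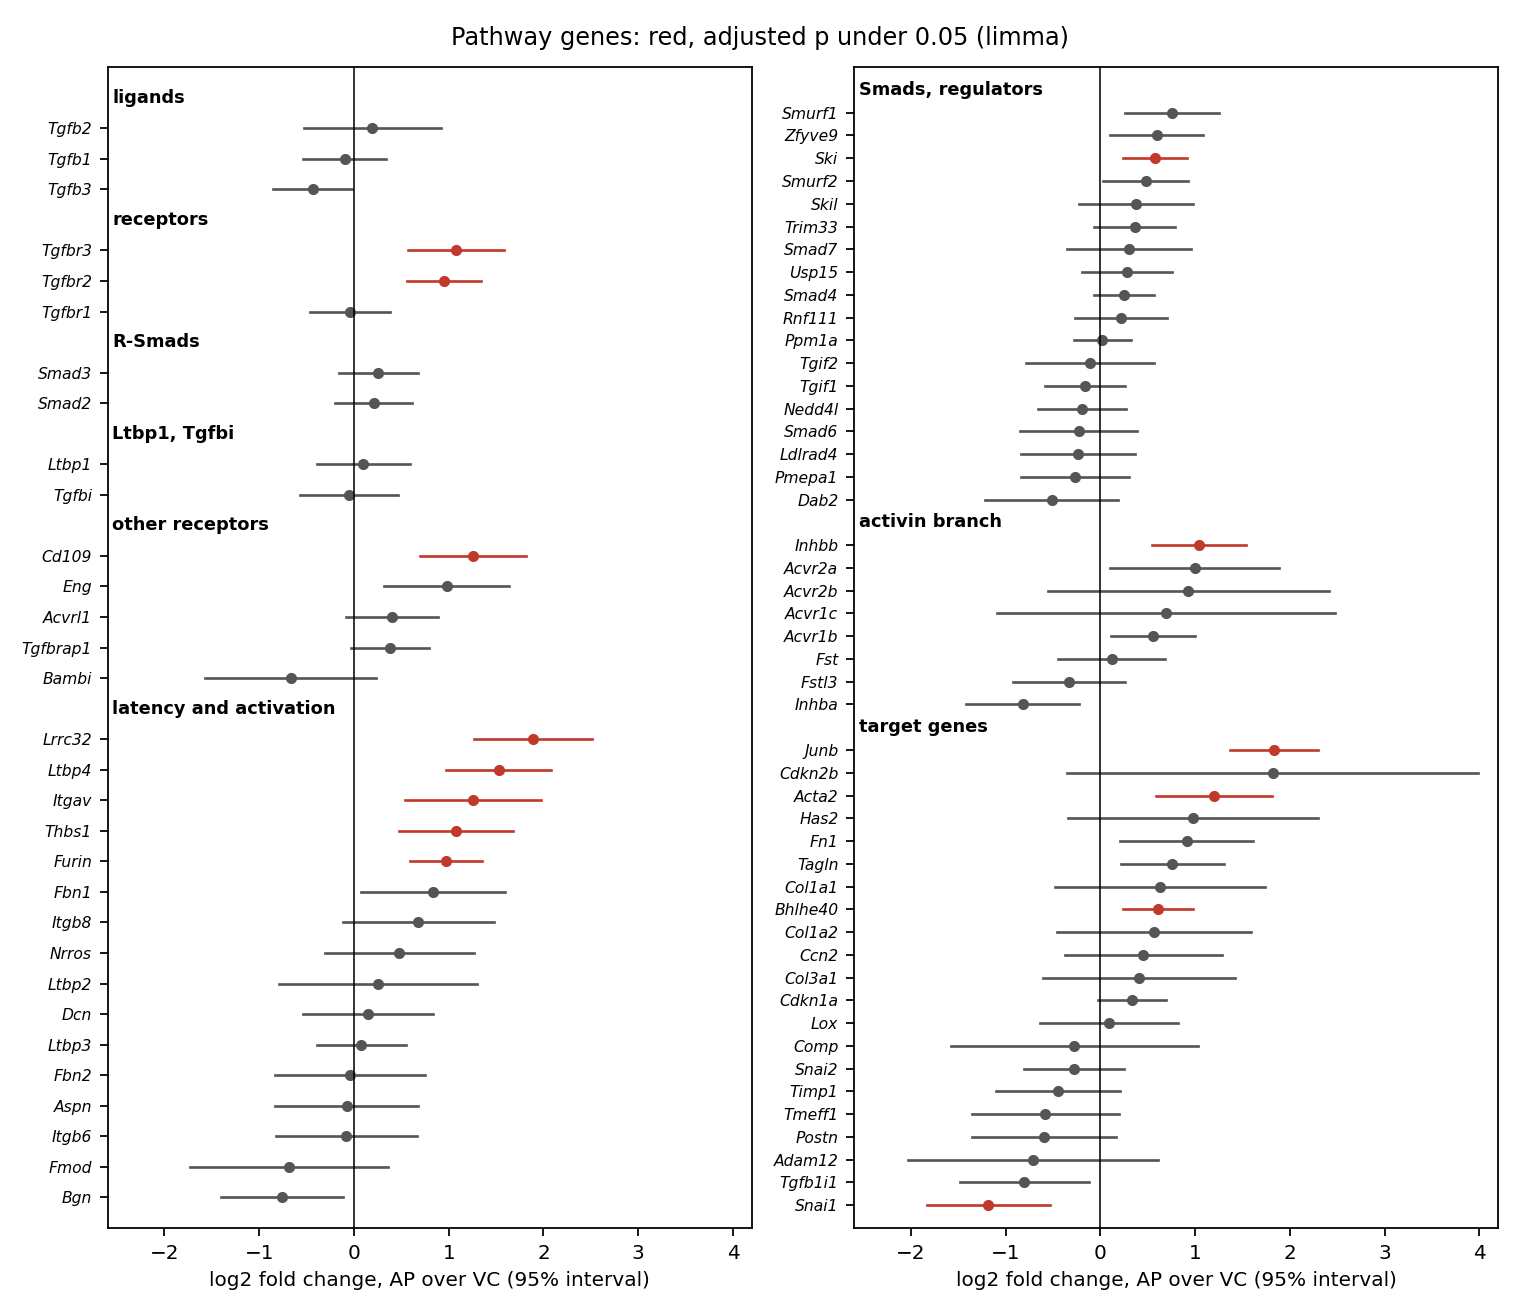
Log2 fold change (AP over VC) with its 95% interval for the 10 members and 68 other pathway genes, red where the adjusted p was under 0.05 by limma. Tgfbr2 (0.95) and Tgfbr3 (1.08) passed and Tgfbr1 (-0.04) did not, and Lrrc32 and Junb have the largest called values of latency, storage and activation and of the target genes; scaling to total counts adds 0.84 to the median of all genes and turns Tgfb1, Tgfb3, Tgfbr1 and Tgfbi positive.

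Markers of cell types moved between the groups as well, and in bulk tissue more cells of a type and more RNA per cell cannot be told apart. For comparison with the marker lists here and below, limma called 6.33% of all genes tested higher and 4.0% lower. Over all genes edgeR called 1003 higher and 712 lower, and DESeq2 1667 and 1394. No share of all genes is given for the unadjusted p. Endothelial cells express Eng, Tgfbr2 and Lrrc32, and of 7 endothelial markers 2 were higher (Pecam1 and Cdh5), where 5 had an unadjusted p under 0.05, edgeR called 2 and DESeq2 4. By limma it was 1 without VC.1, VC.2, AP.2, AP.3 or AP.4 and 4 without VC.4; Cdh5 had an adjusted p of 0.0848 without VC.1, 0.0651 without VC.2, 0.0880 without AP.2, 0.0725 without AP.3 and 0.0721 without AP.4. Summed over the list, they had 1248, 1170, 1442 and 1924 normalized counts in VC.1 to VC.4, compared with 2665, 5432, 2136 and 2401 in AP.1 to AP.4, with Cldn5 the most abundant per length. AP.2 was the highest library for this sum as for Tgfbr2, Eng and Ltbp4, and AP.1 was the highest for Tgfbr3. The sum had 5432 in AP.2 and 2665 in AP.1, where Tgfbr2 had 1485 and 1356. Egfl7 was the 1 endothelial marker with a negative log2 fold change (-0.40, limma adjusted p = 0.291). Of 6 smooth muscle markers, 3 were higher (Acta2, Myh11 and Actg2; 5 higher and 1 lower at an unadjusted p under 0.05, 3 higher by edgeR and 4 by DESeq2), and 1 without VC.1, VC.2, AP.2 or AP.4. Actg2 had an adjusted p of 0.0550 without VC.1, 0.0507 without VC.2, 0.0899 without AP.2, 0.0697 without AP.3 and 0.0822 without AP.4, Acta2 0.0636 without VC.1, 0.0510 without VC.2, 0.0674 without AP.2 and 0.0657 without AP.4, and 1 marker was lower without AP.1. Their sums came to 3944, 6289, 4298 and 4704 in VC.1 to VC.4, compared with 7950, 6327, 2599 and 4101 in AP.1 to AP.4, with Des the most abundant per length in the VC group and Acta2 in the AP group. Des was the marker lower at an unadjusted p (log2 fold change -1.33, limma adjusted p = 0.105). It averaged 3515 normalized counts in the VC group, where the sum averaged 4809, and had 4765, 1058, 596 and 1105 in AP.1 to AP.4. The sums therefore do not describe the 3 higher markers alone. The part of these markers in the result was not tested.

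Of 10 suprabasal keratinocyte markers 8 were higher (9 at an unadjusted p under 0.05, 8 by edgeR and 9 by DESeq2), 9 without AP.2 and 7 in each of the 7 other fits without 1 library. Lor had an adjusted p of 0.0721 without VC.1, 0.06645 without VC.2, 0.0534 without VC.3, 0.0807 without VC.4, 0.0591 without AP.1, 0.1105 without AP.3 and 0.1008 without AP.4. Sums of the suprabasal markers were 6323, 13012, 8987 and 5799 in VC.1 to VC.4, compared with 43328, 41293, 120550 and 170650 in AP.1 to AP.4, with Krt10 the most abundant. AP.3 and AP.4 were the highest libraries, as they were for Cd109. The suprabasal markers were present in every library, although the methods describe removal of the epidermis between follicles. Whether that removal was alike in the groups was not tested. Of 8 markers of basal and outer root sheath keratinocytes 3 were higher (4 at an unadjusted p under 0.05, 2 by edgeR and 3 by DESeq2), 1 without VC.1, VC.4, AP.3 or AP.4, with sums of 34357, 88048, 58390 and 27698 in VC.1 to VC.4, compared with 59648, 60318, 112380 and 153890 in AP.1 to AP.4, and Krt14 the most abundant. Of 9 dermal papilla markers 3 were lower, 1 without AP.2 or AP.3 and 0 without AP.4 (5 had an unadjusted p under 0.05 with all libraries, edgeR called 4 and DESeq2 5), with sums of 2207, 2295, 2861 and 3602 in VC.1 to VC.4, compared with 1177, 1119, 1307 and 1041 in AP.1 to AP.4, and Crabp1 the most abundant in the VC group and Sox18 in the AP group. Their part in the values of the pathway genes was not tested.

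The 9 fibroblast genes, markers of the labelled tissue, were present in every library, with sums of 140300 ± 70850 (VC) and 178800 ± 69610 (AP) normalized counts (SD, n = 4), with Col1a1 the most abundant. By limma 0 of these 9 passed, 1 was higher and 1 lower at an unadjusted p under 0.05, edgeR called 0 and DESeq2 called 1 lower, and limma called 1 lower without AP.1. The 8 skeletal muscle genes summed to 53639, 79375, 40607 and 42767 in VC.1 to VC.4, compared with 80347, 10126, 6058 and 12688 in AP.1 to AP.4, with Acta1 the most abundant. AP.1 was the highest library, and without it all 8 passed as lower. The 8 macrophage and leukocyte genes, cells that make Tgfb1, summed to 11130 ± 5661 and 5653 ± 1665, with Lyz2 the most abundant. The 6 adipocyte genes summed to 18550 ± 8470 and 16900 ± 7925, with Car3 the most abundant. None of the skeletal muscle, leukocyte or adipocyte genes passed with limma or edgeR, while at an unadjusted p under 0.05 6 skeletal muscle and 4 leukocyte genes were lower and 1 adipocyte gene was higher, and DESeq2 called 2 leukocyte genes lower and 0 of the others. Without VC.2 or VC.3 1 leukocyte gene passed as lower. Of 5 red blood cell genes 1 was higher and 0 were lower, while 1 and 1 had an unadjusted p under 0.05, edgeR called 1 and 0 and DESeq2 1 and 1. The higher gene was Hbb-bs, the most abundant in the AP group, while Hba-a1 was in the VC group. For Hbb-bs the adjusted p was 0.0545 without VC.1, 0.0608 without AP.2 and 0.0520 without AP.4. The red blood cell sums were 686 ± 189 and 1015 ± 395. Alas2 was the marker gene with a library at 0.

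The genes most like Tgfbr2 over the 8 libraries, among 11256 genes with a mean of at least 50 normalized counts, were Lamc1 (r = 0.98), Csf2rb (r = 0.96) and Npy1r (r = 0.96). Within groups, as deviations from the group means, their r was 0.92, 0.85 and 0.94. Those most like Tgfbr3 were Gm11747 (r = 0.97), Cdon (r = 0.97) and Tbc1d4 (r = 0.96), with r of 0.91, 0.90 and 0.88 within groups. These Pearson correlations of log2 values share the difference between the groups and describe these libraries only. Lamc1, a laminin chain gene, had 727 and 1662 normalized counts on average in the VC and AP groups, and Cdon, a cell surface receptor gene, had 77.7 and 203.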

How the data were processed

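Messenger RNA of 4 AP and 4 VC skin samples was analysed. Reads were aligned by the authors to mm10 (STAR), assigned to genes (featureCounts in the methods, HTSeq in the processing notes of the labels), normalized and compared (DESeq2). The deposited signal values are gene counts divided by 1 size factor per library; all 150160 values were whole multiples of 1 step per library within 0.05 reads, so reads could be recovered. The authors' columns with the mean, fold change, standard error, test statistic, p-value and adjusted p-value of each gene were not used. Library columns are named by group and were not tied to single sample labels.

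Members were found by gene symbol. Genes that reached 3 normalized counts in 4 or more of the 8 libraries were compared as log2(value + 1) with limma 3.58.1 in R 4.3.3 (linear model, empirical Bayes, intensity trend) and Benjamini-Hochberg adjustment over all genes tested; fold changes on this scale understate the change of low genes. Single values were compared by 2-sided exact permutation. Exon-union lengths and coordinates came from GENCODE M21, promoters from RefSeq. On recovered reads, edgeR 4.0.16 called 1003 genes higher and 712 lower. The alternatives were pseudocounts, filters, scalings, edgeR, DESeq2 1.42.0, voom with sample weights, the thresholds of the methods, reads drawn down to 3080758 per library, a length trend removed, and each library left out. Steps were tested on simulated data, where limma called 47 of 100 genes changed 2-fold and 99 of 100 changed 4-fold, with 7 false calls. A gene that did not pass is thus not shown to be unchanged. A floor of 3 reads equals 4.10 to 5.63 normalized counts in VC and 1.49 to 2.18 in AP libraries. Named genes are the members, the called genes (up to 6) and the most abundant gene of each pathway list, the most abundant gene of each marker list, and the 3 genes most like each called member; other names were chosen after their values were seen. Calls in the marker lists without 1 library were counted after the first results were seen. A gene fixed in the target list beforehand is not reported here and was left out of the lists. The members and lists were chosen with earlier results of these data known.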

Additional observations from a re-analysis of the deposited data

Results flagged for a closer look

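In 20 groups of 4 libraries, the 10 members in both treatment groups, 0 libraries stood far enough from the rest of their group to pass Dixon's test at its 95% level, where chance alone would pass about 1 in 20 groups.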

How the results depend on the processing

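Tgfbr2 kept its direction under all 22 alternatives, with log2 fold changes from 0.67 to 1.82, and Tgfbr3 from 0.88 to 1.95. The lowest Tgfbr2 value, 0.67 (adjusted p = 0.0483; 1.19e-04 to 0.0483 over its alternatives), came with the trend on exon length removed, where Tgfbr3 had 0.89 (adjusted p = 0.0460; 4.61e-04 to 0.0588). By limma 1011 genes were higher and 639 lower, so 61.3% of called genes were higher. Total-count scaling gave 8662 and 70 (99.2% higher), with 9 members higher, and upper-quartile scaling gave 890 and 892 (49.9% higher). Voom with sample weights gave 858 and 934 (47.9% higher). DESeq2 called 1667 higher and 1394 lower, and 673 were higher with the length trend removed. Leaving out 1 library gave 211 to 1061 genes higher, 96 to 812 lower and 1 to 2 members higher. The lowest counts were without AP.3 (211 and 96), AP.4 (257 and 147), AP.2 (385 and 155) and VC.1 (584 and 255). The cause of these shifts was not tested. Of 220 member fold changes under alternatives, 212 kept their side of the threshold; 7 passed with total-count scaling and that of Tgfbr3 missed it without AP.2. No paired analysis was possible because the groups share no replicate label.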

Other observations

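Of the pathway genes, 6 passed in DESeq2 on the recovered reads but not in limma as reported above, and are given here after their values were seen. Inhba, the βA subunit of activin, had a VC mean of 126 ± 27.0 and an AP mean of 71.7 ± 21.6 normalized counts (SD, n = 4), a direction opposite to that of Inhbb. Its log2 fold change was -0.82 by limma (adjusted p = 0.0722), -0.81 by DESeq2 (adjusted p = 0.0385), -1.0 with the length trend removed (adjusted p = 0.0442) and 0.04 with total-count scaling, with adjusted p-values from 0.0385 to 0.924 over its alternatives. Eng had 1.06 by DESeq2 (adjusted p = 0.0178), with a range from 0.00151 to 0.127. Of the others, Smurf1 (adjusted p = 0.0217), Tagln (0.0260) and Fn1 (0.0455) were higher and Tgfb1i1 (0.0456) was lower in DESeq2, where limma gave 0.0533, 0.0677, 0.0843 and 0.110; Tgfb1i1 turned positive with total-count scaling.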
